A study of Mus musculus with 52 samples.

Results

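The genes described here are Pdk4, Angptl4, Cpt1a, Acot1, Acot2, Vnn1, Fgf21, Plin2 and Ucp3, which are known targets of the nuclear receptor PPAR alpha or of the fasting response. They were taken by gene name from the deposited RNA-seq tables, and make up 9 of the 39144 genes listed there. The rule is a list of gene names, drawn up with earlier results of these data known, so the choice is not independent of the values below. All 9 were listed in eyes, spleen and testes. Heart, prostate and brain did not list Fgf21, and liver and MEFs did not list Ucp3.

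RNA was sequenced from male mice that were wild type or homozygous for the Tug1_tm1.1Vlcg allele (Tug1-/-), in which a lacZ reporter stands in place of the gene body of the lncRNA Tug1 and the promoter and first exon remain. Liver, heart, eyes, spleen, prostate and MEFs (mouse embryonic fibroblasts grown as primary cultures, at passage 2) came from the mixed background C57BL/6J/129S6, labelled N3-C57BL/6J and without the Neo cassette in both genotypes. Each of these groups had 3 samples, except Tug1-/- prostate with 2. Testes came from 4 wild-type, 4 Tug1-/- and 3 rescue males, where rescue means Tug1-/- males on a doxycycline diet that carried a Tug1 transgene, tg(Tug1), and the activator CAGs-rtTA3, which a ubiquitous promoter drives. The labels give the wild-type testes as without Neo and both other testes groups as carrying Neo and LacZ, while the methods of the study describe a colony bred to be rid of Neo. Whether the labels mark a true difference is not known here, and if they do, genotype and background cannot be told apart in testes. Brain means came from wild-type and Tug1-/- libraries outside this series. MEFs were grown from littermate embryos. The study calls the organs adult tissues. The exact age of the mice that gave them, their feeding state and the hour of collection are not given in the sources used here.

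PPAR alpha pairs with the retinoid X receptor RXR on DNA and is turned on by fatty acids. In a fasted animal, fatty acids released from fat reach the liver, where PPAR alpha raises the transport of acyl chains into mitochondria, their oxidation and the making of ketone bodies. Heart muscle burns fat at all times and uses part of the same set, while glucocorticoids, the adrenal hormones that also rise on fasting, are known to raise several of these genes through another receptor.

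The files gave 1 mean per group in TPM (the relative abundance of a transcript, scaled to its length and to depth) and no value for a single sample. No spread between replicates could be had and no test was run. The authors' own fold changes and p-values were deposited beside the means and were not used. Whether any difference below is larger than the spread between samples cannot be told from the means alone. Genes were compared where the average of both group means reached 1 TPM. A difference is given as the log2 ratio of the means after adding 0.1 TPM, and a gene is called higher or lower where it reached 1.5-fold. Folds written as "times" are plain ratios of the means. Tug1 itself was at 0.0825% to 2.21% of the wild-type mean in the 8 Tug1-/- groups, and at 4.0% of it in rescue testes. Defining markers of the labelled tissues were present, with Alb at 97035 TPM in wild-type liver, Myh6 at 4692 TPM in wild-type heart, Pbsn at 65995 TPM in prostate and Prm1 at 14339 TPM in testes.

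Acot1 and Acot2 encode acyl-CoA thioesterases, the first in the cytosol and the second in mitochondria, and part of their reads cannot be separated. The coding parts of transcripts Acot1-201 and Acot2-201 were 95.3% identical over 1236 aligned bases. Of all 2172 stretches of 1 read length in Acot1-201, 356 were found unchanged in Acot2, and 471 in at least 1 other gene, Acot2 included. For Acot2-201 the count was 356 of 2096. The second coding exon shows how alike they are, with 199 of 203 bases shared. Its longest identical run was 97 bases, shorter than a read of 101 bases, so a full read inside this exon holds a differing base. The exon is printed below from the GENCODE vM21 transcripts, plus strand, with the differing bases in capitals. The Acot1 exon lies at chr12:84014379-84014581 and the Acot2 exon at chr12:83990494-83990696 of GRCm38.
Acot1: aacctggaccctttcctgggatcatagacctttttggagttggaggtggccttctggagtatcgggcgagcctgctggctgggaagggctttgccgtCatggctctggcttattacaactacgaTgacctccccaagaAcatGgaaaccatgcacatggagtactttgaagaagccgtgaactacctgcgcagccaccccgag
Acot2: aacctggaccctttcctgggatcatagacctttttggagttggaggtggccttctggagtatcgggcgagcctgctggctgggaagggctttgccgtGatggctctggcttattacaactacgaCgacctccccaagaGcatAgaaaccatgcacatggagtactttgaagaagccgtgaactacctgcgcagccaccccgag
The authors counted uniquely mapped reads, so a read pair inside a shared stretch counts for neither gene, and the levels of both are uncertain. None of the other genes except Plin2 shared such a stretch with another gene, and Plin2 shared 3 of 1788. On the opposite strand of Ucp3 lies Gm10603, over 1857 bases. Since counting by strand is not stated, reads of the 2 cannot be told apart.

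In wild-type mice the 9 genes had their highest levels in 4 different tissues, liver, heart, MEFs and prostate. Cpt1a, the gate for long acyl chains into mitochondria, ranged from 31.2 TPM in brain to 239 TPM in liver. Plin2, the coat of lipid droplets, was highest in liver at 277 TPM, followed by MEFs at 217 TPM, and lowest in prostate at 5.23 TPM. Pdk4, the kinase that shuts pyruvate out of the citric acid cycle, had 206 TPM in heart, 9.56 times the next tissue, the eyes. Ucp3, an uncoupling protein of muscle mitochondria, was also highest in heart at 46.8 TPM, 5.94 times the eyes. Acot2 led in heart too, at 44.8 TPM, and Acot1 in prostate at 16.5 TPM.

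Liver held the highest wild-type level of 4 of the 9 genes. Besides Cpt1a and Plin2 these were Angptl4, a secreted inhibitor of lipoprotein lipase, at 83.0 TPM, and Vnn1, a pantetheinase on the cell surface, at 35.9 TPM. Fgf21, the fasting hormone released by the liver, stood at 1.71 TPM in wild-type liver, below MEFs at 4.60 TPM and testes at 2.92 TPM. Testes stood in a separate table, and levels set across the tables rest on TPM scaling alone. Without values of single samples, neighbours in such an order cannot be called different.

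**Figure D1:**
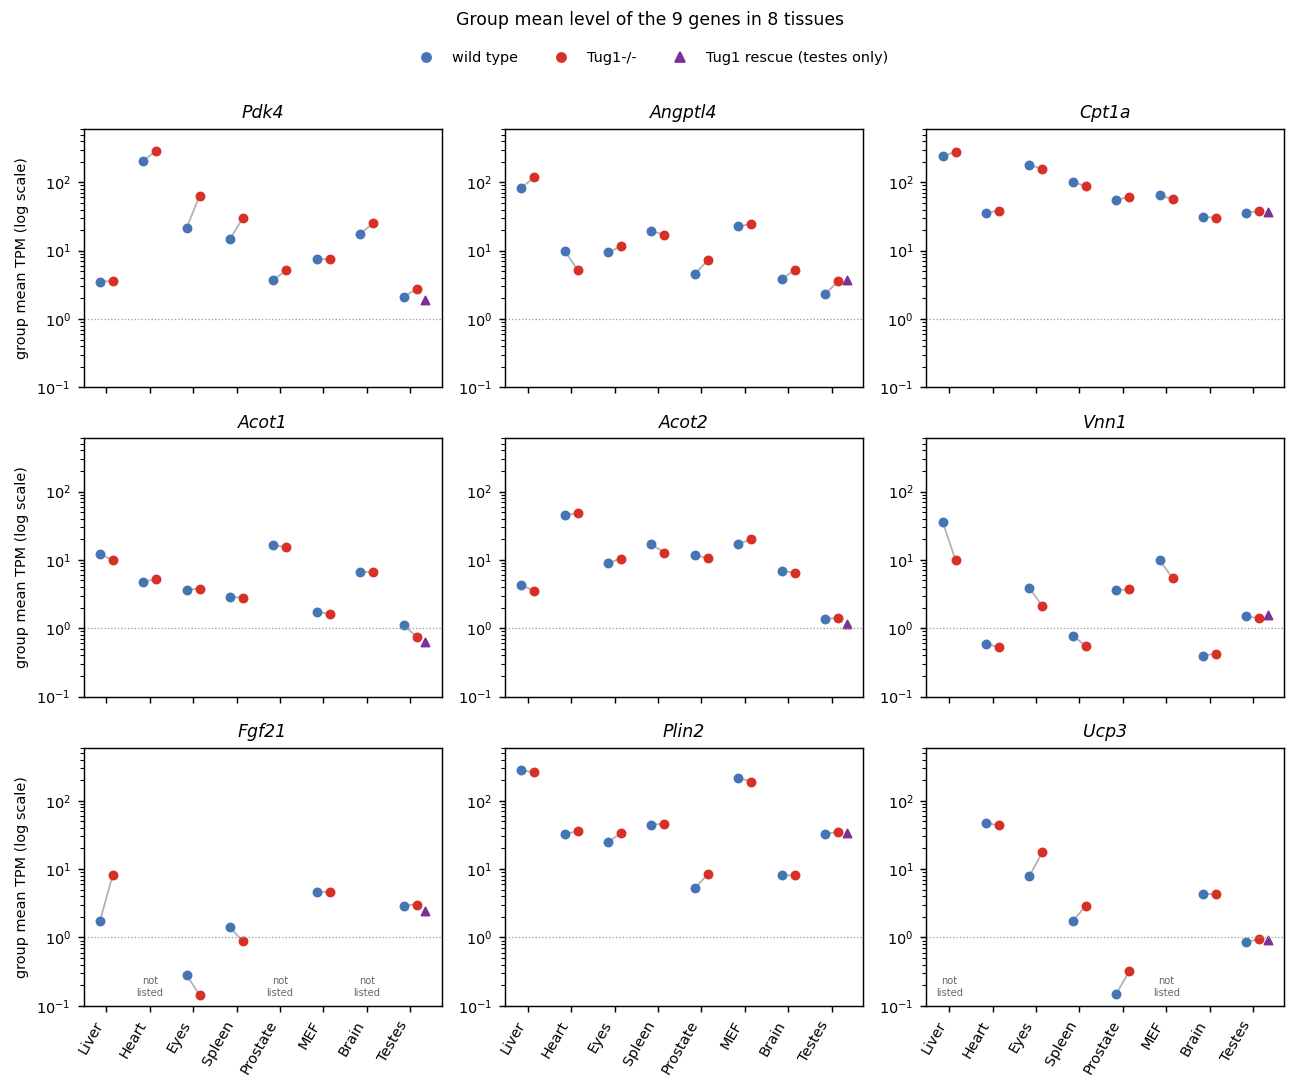
Group mean level in TPM (log scale) of each of the 9 genes in 8 tissues, blue for wild type, red for Tug1-/- and a purple triangle for rescue testes; the dotted line marks 1 TPM and no error can be drawn. Pdk4 peaks in heart (206 and 291 TPM), while Fgf21 and Vnn1 in liver show the widest gaps between genotypes.

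In liver, Fgf21 (chr7:45613886-45615490, minus strand, mm10) was higher and Vnn1 (chr10:23894688-23905343, plus strand) lower in Tug1-/- mice. Fgf21 had a mean of 1.71 TPM in wild type against 8.29 TPM in Tug1-/-, 4.84 times as much (log2 ratio 2.21), which placed it at rank 10 of the 11849 genes compared, counted from the top. Its mean normalised count over both groups was 83.1, so the value rests on few reads. Vnn1 went the other way, from 35.9 to 9.87 TPM (log2 ratio -1.85), rank 12 counted from the bottom, with a mean normalised count of 998. Of the 8 listed genes all 8 reached the minimum, 1 was called higher against a background of 2.97% of all genes, and 1 lower against 2.25%.

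The other 6 genes lay within 1.5-fold in liver. Angptl4 had 83.0 TPM in wild type against 118 TPM in Tug1-/-, 1.42 times as much, and Cpt1a had 239 and 281 TPM, 1.17 times as much. Plin2 had 277 and 261 TPM. Pdk4 was low in both, with 3.53 and 3.60 TPM. Acot1 had 12.4 and 9.79 TPM and Acot2 4.29 and 3.51 TPM, with the limit on that pair given above. The median log2 ratio of the 8 genes was -0.03, beside 0.01 for all genes compared. Liver thus held the widest range among the 9 genes, from -1.85 to 2.21, around a median near that of all genes. The 5 hepatocyte markers lay within the limit, and macrophage markers were higher for 1 of 6, Adgre1 with 12.3 and 21.0 TPM, with sums of 227 and 303 TPM. Smooth muscle markers were higher for 2 of 3 compared, with sums of 5.24 and 8.77 TPM, and fibroblast markers for 1 of 4, with sums of 13.2 and 17.8 TPM. The part of macrophages, smooth muscle cells and fibroblasts in the liver values was not tested. In the Leydig and Sertoli cell list 1 of 2 genes compared was higher (log2 ratio 2.32), and the other was at 0.05. That list summed to 9.02 and 36.6 TPM, and a single gene does not show that such cells were present in liver.

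Genes of the wider pathway, taken from 11 lists, were mostly within the limit in liver. Among 16 genes of mitochondrial fatty acid oxidation none passed 1.5-fold, and their log2 ratios ran from -0.22 to 0.10 with a median of -0.08. Of these, 13 had the lower mean in Tug1-/-, and 2 lay above the median of all genes. None of 6 genes of ketone body synthesis and use passed it either, and 5 had the lower mean (median -0.20). Of 15 peroxisomal and microsomal genes 1 was called, Abcd2, a peroxisomal transporter of fatty acids, with 11.7 and 27.1 TPM. In that list 12 had the lower mean (median -0.15). None of 8 genes of fatty acid uptake, binding and activation was called.

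The receptors and their partners showed 1 gene higher and 2 lower of 14 in liver. Lpin1, a phosphatidate phosphatase that also works as a coactivator of PPAR alpha, had 30.2 TPM in wild type against 140 TPM in Tug1-/- (log2 ratio 2.21). Pparg had 11.8 and 6.05 TPM and Rxrg 5.07 and 2.85 TPM. Ppara itself had 141 and 111 TPM (log2 ratio -0.34), within the limit. Of 10 genes of lipid droplets and lipolysis, G0s2, an inhibitor of the lipase ATGL, was lower, with 183 TPM in wild type against 51.0 TPM in Tug1-/-, and Lipe, the hormone-sensitive lipase, had 5.42 and 3.50 TPM. The droplet coats Plin5 and Plin4 were higher, at 27.3 against 42.5 TPM and 0.88 against 1.40 TPM. Among 11 paralogs of the 9 genes, Acot3 had 16.9 and 5.78 TPM and Acot4 30.5 and 19.4 TPM, both lower, while Plin5 and Plin4 were the 2 called higher. With a pseudocount of 1 TPM, Plin4 and Lipe were within the limit, which left 1 higher and 1 lower in the droplet list and 1 higher among the paralogs.

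Genes of fasting glucose production in liver were called in both directions, 3 higher and 1 lower of 8. Igfbp1, a binding protein for insulin-like growth factors that insulin holds down, had 38.2 TPM in wild type against 101 TPM in Tug1-/-. Tat, which breaks down tyrosine, had 1681 and 3038 TPM, and Sds, which breaks down serine, 201 and 304 TPM. G6pc, which releases free glucose, was lower at 595 against 364 TPM. In the clock list Ciart was higher (8.09 and 13.2 TPM) and Nfil3 lower (18.3 and 11.6 TPM) of 10.

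In heart, Angptl4 (chr17:33773750-33781575, minus strand) was the single gene of the 9 called, and it was lower. It had 9.97 TPM in wild type against 5.23 TPM in Tug1-/- (log2 ratio -0.92), rank 119 of 13701 genes counted from the bottom. Of the 7 genes that reached the minimum none was called higher, against a background of 1.67%, and 1 lower, against 1.82%. The median log2 ratio over all genes compared was 0.10 in heart, a shift toward Tug1-/-, and counts of called genes use the ratios without centring on it. Vnn1 was under the minimum, with 0.59 and 0.53 TPM.

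Pdk4 in heart had a wild-type mean of 206 TPM and a Tug1-/- mean of 291 TPM, 1.41 times as much, a log2 ratio of 0.50 and of 0.39 relative to the median gene. Ucp3 had 46.8 and 44.0 TPM. Acot2 had 44.8 and 48.6 TPM, Cpt1a 35.8 and 38.5 TPM, Plin2 32.7 and 35.6 TPM, and Acot1 4.77 and 5.23 TPM. These last 4 genes had log2 ratios of 0.10 to 0.13, at the level of the median gene.

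Marker genes of fat and skeletal muscle moved with Angptl4 in heart. All 4 adipocyte markers compared were lower in Tug1-/-, among them Adipoq with 32.2 and 14.5 TPM and Plin1 with 10.3 and 4.66 TPM, and the summed level of the list was 184 TPM in wild type against 98.0 TPM in Tug1-/-. No adipocyte marker was at 0. Of 6 skeletal muscle markers 5 were lower, with Tnnt3 at 31.5 and 0.76 TPM, and Myh4 at 4.24 TPM and listed at 0. The list had a median log2 ratio of -5.12, with the marker within the limit at -0.40, and summed to 301 and 179 TPM. The 3 B and T cell markers compared were lower too, with sums of 24.0 and 11.4 TPM. Angptl4 is made by adipocytes as well as by muscle, and the part of these cells in its lower mean was not tested. Nor was the part of skeletal muscle in the heart values of Pdk4 and Ucp3, which that muscle is known to express. In whole tissue, fewer cells of a type and less RNA per cell cannot be told apart. The 5 cardiomyocyte markers lay within the limit.

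Fat-oxidation genes of heart were as little apart as those of liver. All 17 genes of mitochondrial fatty acid oxidation lay within the limit, with log2 ratios of 0.08 to 0.27 and a median of 0.14. Of these, 14 lay above the median of all genes. None of 6 ketone genes and none of 8 genes of fatty acid uptake was called. In the list of receptors, Ppara had 18.1 TPM in wild type against 27.4 TPM in Tug1-/- (log2 ratio 0.60), 1 of 12 called, and relative to the median gene, or with a pseudocount of 1 TPM, it was no longer past the limit. Abcd2 was lower, with 4.27 and 2.78 TPM, 1 of 12 peroxisomal genes, and was within the limit with a pseudocount of 1 TPM.

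Some genes of lipid droplets and of lipogenesis were called lower in heart, and none of either list higher. The droplet list as a whole was not lower. Of its 12 genes 7 had the higher mean in Tug1-/-, the median log2 ratio was 0.11 beside 0.10 for all genes, and the sums were 798 and 866 TPM. Plin1 (values above) and Cidec, with 23.8 and 13.7 TPM, were the 2 lower of 12 genes of lipid droplets, and Ucp1, the uncoupling protein of brown fat, had 29.7 and 15.7 TPM. Of 13 paralogs compared, Plin1 and Ucp1 were the 2 called. Among 11 genes of the fed state and lipogenesis 4 were lower and none higher: Scd1, a fatty acid desaturase, had 145 and 49.8 TPM, Pnpla3 1.97 and 1.01 TPM, Fasn 29.1 and 18.0 TPM, and Elovl6 2.30 and 1.39 TPM. Relative to the median gene 5 of the 11 were lower, and with a pseudocount of 1 TPM 2, Scd1 and Fasn. Pck1 had 28.4 and 12.8 TPM, while Tat had 0.93 and 1.86 TPM, near the minimum, and was within the limit with a pseudocount of 1 TPM. Adipocytes express many of these genes, and the marker values above stand beside them.

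**Figure D2:**
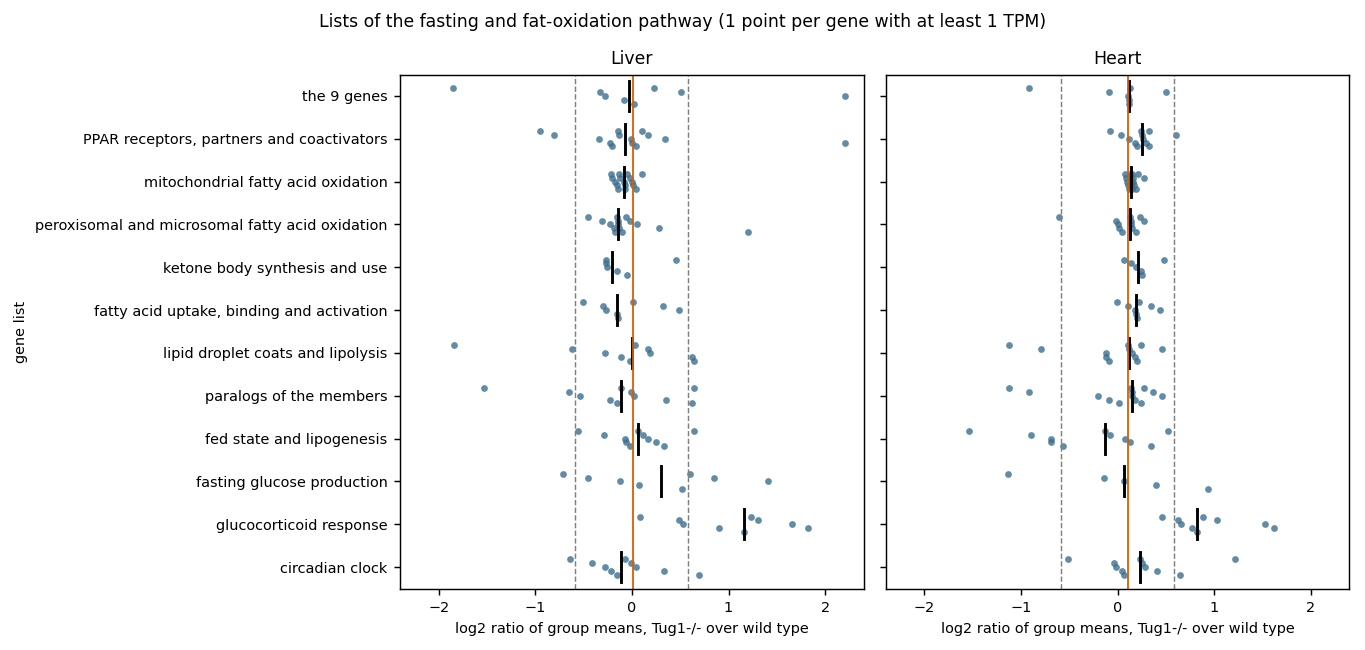
Log2 ratio of group means (Tug1-/- over wild type) of each gene with at least 1 TPM, by list, in liver and heart; black bars are list medians, dashed lines 1.5-fold, and the orange line the median of all genes. Fat-oxidation lists cluster near the orange line in both organs, whereas the glucocorticoid list has medians of 1.16 and 0.82.

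The list of 9 glucocorticoid response genes stood highest of the 12 lists in both organs. In liver 6 of 9 were higher, against a background of 2.97%, and none lower, with a median log2 ratio of 1.16 beside 0.01 for all genes, and the largest were Zbtb16 with 2.20 and 8.02 TPM, Mt2 with 4.04 and 13.0 TPM, Mt1 with 26.8 and 66.6 TPM and Fkbp5 with 6.78 and 16.1 TPM. Fkbp5 is a co-chaperone of the glucocorticoid receptor, and Mt1 and Mt2 are metallothioneins. In heart 8 of 9 were higher, against a background of 1.67%, or 6 of 9 relative to the median gene, and none lower, with a median of 0.82 beside 0.10, and the largest were Zbtb16 with 8.87 and 27.5 TPM, Fkbp5 with 4.83 and 14.1 TPM, Mt2 with 12.0 and 24.6 TPM and Cdkn1a with 11.5 and 21.4 TPM. Of 11 clock genes in heart, Per2 (7.56 and 17.7 TPM) and Ciart (10.6 and 16.6 TPM) were higher. Relative to the median gene Ciart was within the limit, which left 1 higher, and 1 was lower, Arntl with 1.63 and 1.12 TPM.

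Across the tissues the same list was called higher for 4 of 9 genes in prostate (median 0.54), 4 of 9 in spleen (0.27), 2 of 9 in eyes (0.31), and 0 of the genes compared in MEFs (0.07), brain (-0.01) and testes (0.11). The backgrounds were 4.67% in prostate, 4.99% in spleen and 2.84% in eyes, and the medians of all genes were 0.04 in prostate, -0.11 in spleen and in eyes, 0.05 in MEFs, -0.02 in brain and 0.03 in testes. Pdk4 and Angptl4 are known glucocorticoid targets. The log2 ratio of Pdk4 was 0.03 in liver, 0.50 in heart, 0.44 in prostate, 1.03 in spleen, 1.56 in eyes, 0.02 in MEFs, 0.53 in brain and 0.40 in testes. Angptl4 in the same order was at 0.51, -0.92, 0.65, -0.17, 0.28, 0.10, 0.41 and 0.61.

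**Figure D3:**
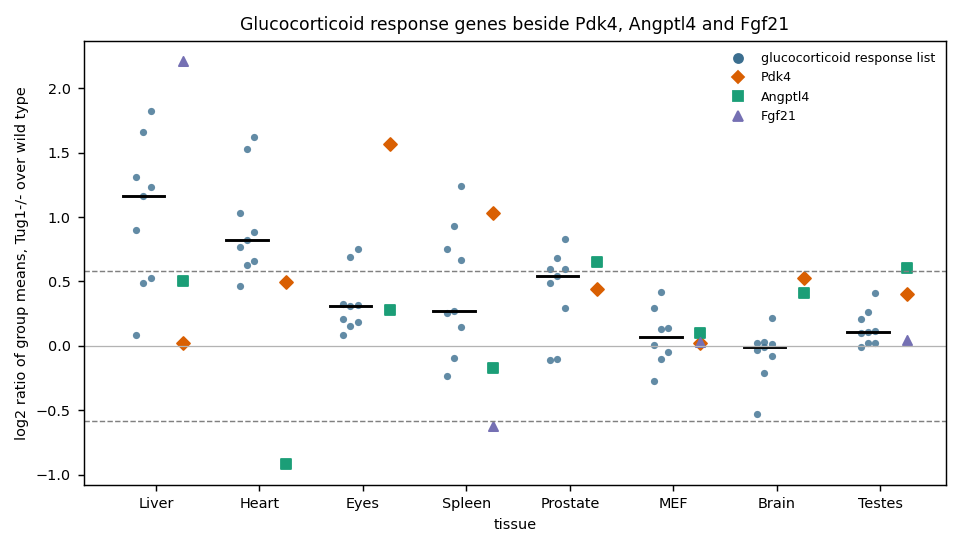
Log2 ratio of group means (Tug1-/- over wild type) by tissue for up to 9 glucocorticoid response genes (blue points, black bar the median) beside Pdk4, Angptl4 and Fgf21, with dashed lines at 1.5-fold. The list median is 1.16 in liver and 0.82 in heart, and near 0 in MEFs and brain. Pdk4 is highest in eyes at 1.56.

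In eyes, Pdk4 (chr6:5483351-5496309, minus strand) and Ucp3 (chr7:100472990-100486432, plus strand) were higher and Vnn1 was lower in Tug1-/- mice. Pdk4 had 21.6 TPM in wild type against 64.0 TPM in Tug1-/-, 2.96 times as much, rank 41 of 19203 genes. Ucp3 had 7.88 and 17.8 TPM, 2.25 times as much, and Vnn1 had 3.89 and 2.10 TPM. Of 8 genes compared, 2 were called higher against a background of 2.84% and 1 lower against 3.82%. The median gene in eyes was at -0.11, and the median of the 8 genes at 0.25. Plin2 had 24.9 and 33.5 TPM and Angptl4 9.49 and 11.5 TPM (log2 ratio 0.28), both within the limit.

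Of the genes of fat storage and uptake a part was called higher in Tug1-/- eyes, and none lower. Of 12 genes of lipid droplets and lipolysis 8 were higher, against the background of 2.84%, and none lower (median 0.78), among them Cidec, a droplet protein, with 21.9 and 97.4 TPM and Plin5 with 5.13 and 10.9 TPM. Of 8 genes of fatty acid uptake, binding and activation 4 were higher and none lower (median 0.64): Lpl, the lipase that Angptl4 inhibits, had 29.6 and 64.6 TPM, Cd36 74.5 and 155 TPM, Fabp3 121 and 232 TPM, and Gpihbp1 3.85 and 7.45 TPM. All 17 genes of mitochondrial fatty acid oxidation had the higher mean in Tug1-/- (log2 ratios 0.10 to 0.58, median 0.36) but none passed the limit, and relative to the median gene 4 did. None of 6 ketone genes and none of 12 peroxisomal and microsomal genes was called. Fat and muscle cells express many of these genes, and markers of both moved with them.

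The 5 adipocyte markers were all higher in Tug1-/- eyes, with Cfd at 89.2 and 492 TPM and Adipoq at 30.7 and 91.4 TPM, and sums of 141 and 642 TPM. Of 6 skeletal muscle markers 5 were higher, with Acta1 at 1277 and 2464 TPM and sums of 5244 and 9272 TPM, and none was at 0. Skeletal muscle is known to express Pdk4 and Ucp3, and the part of these cells in the results on Pdk4, Ucp3 and the pathway lists was not tested. Cardiomyocyte markers, some of which other muscle shares, were higher for 2 of 4, with sums of 267 and 487 TPM. Brown adipocyte markers were higher for 2 and lower for 1 of 3, with sums of 22.5 and 37.0 TPM. In the hepatocyte list 1 of 2 compared was higher (log2 ratio 2.21), with sums of 2292 and 2428 TPM. The 5 photoreceptor and lens markers lay within the limit.

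In spleen, Pdk4 had 14.8 TPM in wild type against 30.3 TPM in Tug1-/-, and Ucp3 had 1.73 and 2.92 TPM. Fgf21 was lower, with 1.40 and 0.87 TPM, close to the minimum. Thus 2 of 8 genes were called higher against a background of 4.99%, and 1 lower against 4.37%. The median gene was at -0.11, and relative to it Fgf21 was within the limit. With a pseudocount of 1 TPM in place of 0.1 TPM, Ucp3 at 0.52 and Fgf21 at -0.36 were within it too, which left Pdk4. In the same organ the exocrine pancreas markers summed to 68.8 TPM in wild type against 5108 TPM in Tug1-/-, with 4 of 4 compared higher and Cpa1 at 1.23 and 671 TPM. The hepatocyte list summed to 24.5 and 1.68 TPM, with 4 of 4 compared lower, and prostate epithelium markers to 0.49 and 69.1 TPM, with 1 of 1 compared higher. The part of such other tissue in the values of Pdk4, Ucp3 and Fgf21 was not tested. Skeletal muscle markers in spleen summed to 22.6 and 24.9 TPM, with 1 of 2 compared lower, Tnnt3 at 4.41 and 2.71 TPM, and adipocyte markers to 7.42 and 5.85 TPM, with 1 of 2 lower, Adipoq at 1.69 and 0.76 TPM. The macrophage list had 1 of 5 lower, the fibroblast list 1 of 5 lower and the list of neurons and glia 1 of 3 higher, and the 5 B and T cell markers lay within the limit.

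In prostate, with 2 Tug1-/- samples, Plin2 and Angptl4 were higher. Plin2 had 5.23 and 8.46 TPM, 1.62 times as much, and Angptl4 had 4.57 and 7.24 TPM, 1.58 times as much. None of the 7 genes compared was lower, so that the counts were 2 against a background of 4.67% and 0 against 2.05%. With a pseudocount of 1 TPM, Angptl4 was within the limit at 0.56, and 1 of the 2 calls remained. Pdk4 had 3.76 and 5.16 TPM. All 5 adipocyte markers were higher here as well, with Adipoq at 9.65 and 42.7 TPM and sums of 83.7 and 434 TPM, none of them at 0. Macrophage markers were higher for 2 of 4, with sums of 81.2 and 121 TPM. The hepatocyte list summed to 8.22 and 62.8 TPM, nearly all of it from the 1 marker compared, Cyp2e1 (log2 ratio 2.93), with Alb under the minimum at 0.15 and 0.53 TPM. Both Plin2 and Angptl4 are expressed in adipocytes, and the part of any of these cells was not tested. Of the 5 prostate epithelium markers 1 was lower, Spink1 with 5.39 and 3.50 TPM, and the list summed to 88150 and 80508 TPM.

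**Figure D4:**
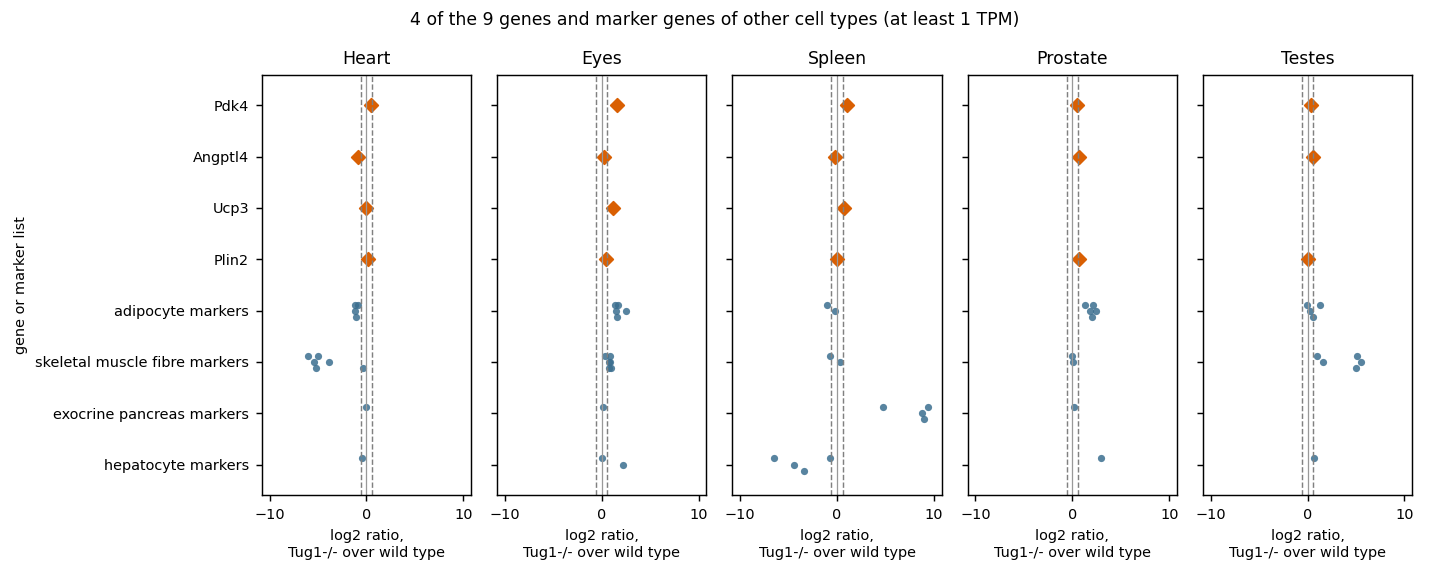
Log2 ratio of group means (Tug1-/- over wild type) in 5 tissues for Pdk4, Angptl4, Ucp3 and Plin2 (orange diamonds) and for marker genes of 4 other cell types (blue points), each with at least 1 TPM; dashed lines mark 1.5-fold. Adipocyte markers are lower in heart, where Angptl4 is at -0.92, higher in prostate, where it is at 0.65, and higher in eyes, where it is at 0.28.

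In testes, Angptl4 had 2.30 TPM in wild type, 3.55 TPM in Tug1-/- and 3.72 TPM in rescue. It was the 1 gene called higher in Tug1-/- of 7 compared, against a background of 2.34%, and none was called lower, against 2.9%. Relative to the median gene, at 0.03, it was just short of the limit, and with a pseudocount of 1 TPM it was at 0.47, also within it. Pdk4 had 2.09, 2.78 and 1.88 TPM in the same order. The other genes compared, Cpt1a, Acot2, Vnn1, Fgf21 and Plin2, had log2 ratios of -0.09 to 0.09 between Tug1-/- and wild type, and Plin2 had 33.0, 34.6 and 33.9 TPM. Acot1 and Ucp3 were under the minimum.

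Against the Tug1-/- mean, rescue testes had 0 of 7 genes higher, with a background of 1.04%, and 0 lower, with 2.56%. Against wild type they had 1 higher, again Angptl4, with a background of 2.27%, and 0 lower, with 4.33%. With a pseudocount of 1 TPM that call ended too, at 0.52. The 3 comparisons share their groups and are not independent. Rescue males carried the transgene and the activator and were on doxycycline, so the effects of these cannot be told apart. Adipocyte markers of testes summed to 33.2 TPM in wild type, 42.0 TPM in Tug1-/- and 35.7 TPM in rescue, and skeletal muscle markers to 4.78, 42.2 and 3.88 TPM. Between wild type and Tug1-/-, 2 of the 4 adipocyte markers compared were higher, with Cfd at 5.54 and 13.4 TPM and Adipoq within the limit at 23.7 and 23.3 TPM, and the list median was 0.45. All 5 Leydig and Sertoli cell markers had the higher mean in Tug1-/-, 1 past the limit, with sums of 412, 613 and 530 TPM in wild type, Tug1-/- and rescue. All 4 smooth muscle markers did too, 1 past the limit, with sums of 105, 144 and 120 TPM. Their part in the values of Angptl4 and Pdk4 was not tested.

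In MEFs, Vnn1 was lower, with 9.83 TPM in wild type against 5.41 TPM in Tug1-/-, the 1 gene of 8 called against a background of 3.34%. None was higher, with a background of 3.09%. Plin2 had 217 and 191 TPM and Angptl4 22.8 and 24.5 TPM. No adipocyte marker reached the minimum in these cultures, where the list summed to 0.07 and 0.03 TPM. Macrophage markers were present and summed to 227 and 188 TPM, with Adgre1 higher (19.8 and 29.8 TPM) and the other 3 within the limit at log2 ratios of -0.44 to -0.29. Of 2 endothelial markers compared, Cdh5 was higher, with 0.91 and 1.79 TPM. The part of these cells in the value of Vnn1 was not tested. In brain none of 7 genes was called, with backgrounds of 1.72% higher and 3.0% lower. Pdk4 in brain had 17.6 and 25.4 TPM, 1.45 times as much, and Angptl4 3.86 and 5.17 TPM, 1.34 times as much, both within the limit. The other 5 had log2 ratios of -0.10 to 0.00.

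Read by gene, Pdk4 had the higher mean in Tug1-/- in 8 of 8 tissues, with log2 ratios from 0.02 in MEFs to 1.56 in eyes, and passed the limit in 2. Relative to the median gene of each tissue, MEFs turned to -0.02. Angptl4 was higher in 6 of 8 and lower in heart and spleen, and passed the limit upward in 2 and downward in 1. Vnn1 was lower in 4 of the 5 tissues where it was compared, past the limit in liver, eyes and MEFs, and in the fifth, prostate, it had 3.60 and 3.69 TPM.

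Cpt1a, Acot1 and Acot2 passed the limit in no tissue, and Cpt1a ranged from -0.23 to 0.23 over 8 tissues. Fgf21 was called in 2 of 4 tissues, higher in liver and lower in spleen, and Ucp3 in 2 of 4, higher in eyes and spleen and at -0.09 in heart, its tissue of highest level. Calls within the set went both ways in liver, eyes and spleen, and both calls of prostate were upward.

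**Figure D5:**
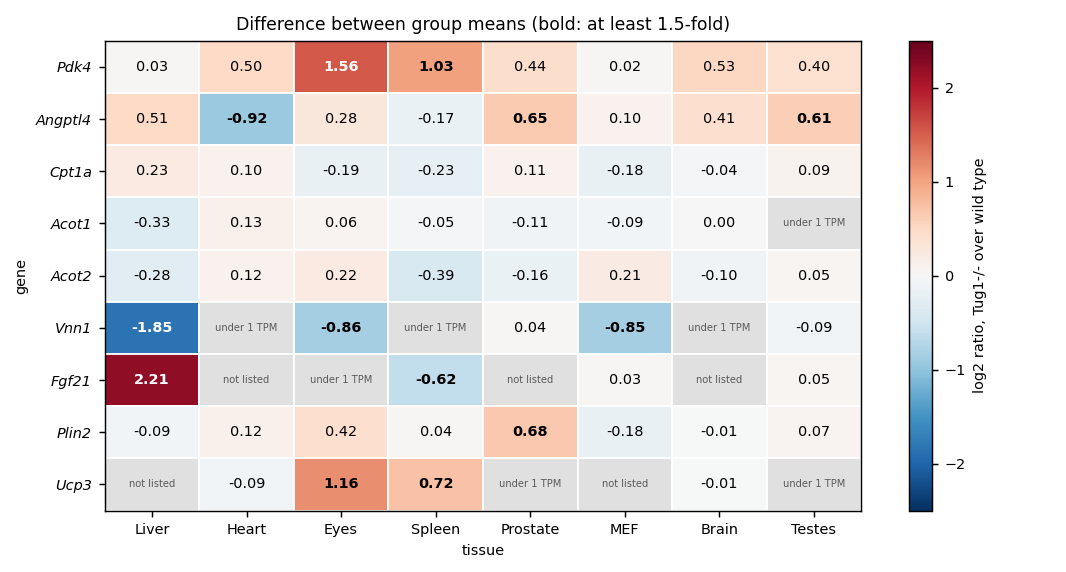
Log2 ratio of group means (Tug1-/- over wild type) of the 9 genes (rows) in 8 tissues (columns), red for higher and blue for lower, bold where the difference reached 1.5-fold, grey where the gene was not listed or averaged under 1 TPM. Pdk4 is at or above 0.02 in each tissue, and the extremes are Fgf21 (2.21) and Vnn1 (-1.85) in liver.

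Promoters from RefSeq (GRCm38.p6, 250 bases before to 50 after the start) were at hand for 7 of the 9 genes, and Vnn1 and Angptl4 had no entry. The element bound by PPAR alpha with RXR is a pair of half-sites 1 base apart, searched on both strands as AGGTCA, any 1 base, and AGGTCA again. None of the 7 windows held it, as against 0.0396% of the 32851 promoters. The glucocorticoid receptor palindrome, searched as GNACA and TGTNC with any 3 bases between them, was in none of the 7 and in 0.475% of all. A single half-site AGGTCA, which the longer element contains, was in 3 of the 7 and in 16.3% of all. Absence from these windows says nothing on the factors, which often bind farther away. The 4 stretches with a half-site (capitals; TGACCT is its other strand) lie at chr4:86670260-86670289 on the minus strand for Plin2, at chr7:100472830-100472859 and chr7:100472935-100472964 on the plus strand for Ucp3, and at chr19:3323195-3323224 on the plus strand for Cpt1a.
Plin2: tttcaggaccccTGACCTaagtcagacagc
Ucp3, farther: ttaaagagccccAGGTCAcggaagctaaac
Ucp3, nearer: gaattaggtttcAGGTCAgctggtgcacag
Cpt1a: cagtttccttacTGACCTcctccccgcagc
Fgf21 showed the widest difference of the set, and its 250 bases upstream (chr7:45615491-45615740, minus strand) are shown because they held neither element.
Fgf21: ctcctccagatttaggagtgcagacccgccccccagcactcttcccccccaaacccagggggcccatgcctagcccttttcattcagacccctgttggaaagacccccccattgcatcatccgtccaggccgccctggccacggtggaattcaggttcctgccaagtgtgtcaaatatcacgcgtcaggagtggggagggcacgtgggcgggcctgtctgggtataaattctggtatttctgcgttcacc

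The genes whose wild-type levels over the 8 tissues were most like each member were found among 18352 protein-coding genes by Pearson's r of log2 TPM, a description over 8 means with a gene not listed in a tissue set to 0. Ucp3 was most like Lsmem1 (r = 0.98) and, among the 3 closest, Olfr558 (0.97). Angptl4 was most like Lgals9 (0.98), Mmp19 (0.95) and Apol9a (0.94), and Plin2 like Nnmt (0.96), Tmem37 (0.94) and Mgmt (0.92). Pdk4 was most like 2010107E04Rik (0.95), Fgf16 (0.94) and Ogdh, a subunit of a citric acid cycle enzyme (0.94). Acot1 was most like 0610040J01Rik (0.99), Bckdhb (0.96) and Pccb (0.95), and Acot2 like Neurl2 (0.96), Chchd1 (0.95) and Tomm5 (0.94). Bckdhb and Pccb encode mitochondrial enzymes that break down branched-chain amino acids and propionate. Cpt1a was most like Gucd1 (0.94), Cpq (0.93) and Scrn2 (0.92), Vnn1 like Sec16b (0.95), Raet1e (0.93) and Slc31a1 (0.93), and Fgf21 like Mov10 (0.94), Prdx4 (0.94) and Brip1 (0.93). None of the 9 genes was among the 3 closest of another.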

How the data were processed

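Total RNA was made into unstranded-kit mRNA libraries (TruSeq v2) and sequenced as read pairs. The authors aligned reads to GRCm38 (mm10) with STAR and GENCODE vM16, counted uniquely mapped reads with featureCounts, and dropped genes in which each replicate had under 3 reads. The deposited tables give group means in TPM for 8 tissues in 2 tables, and a mean normalised count over both groups, used here as a signal of depth. They also hold the authors' DESeq2 fold changes and p-values, which were not used. The depth of single samples is unknown, so no interval is given.

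Log2 ratios of the means were computed with pandas 2.3.3 after adding 0.1 TPM, for genes averaging at least 1 TPM, and read against a limit of 1.5-fold. The calculation was checked on simulated data. Members, 11 pathway lists and 16 cell type lists were chosen with earlier results of these data known. In each list the genes named were those past the limit, at most 4, by size of ratio, and further genes were chosen after their values were seen. Groups came from the labels. The labels name the 2 tables the other way round (organs under the testes table and testes under the other), so tissue was taken from each table's columns, where rescue stands in one and organ names in the other, and checked against tissue markers. Hybrid testes (6 samples) were not analysed here. Alternatives were other pseudocounts, minimums and limits, centring, and leaving out Acot1 and Acot2. The reference was GENCODE vM21, of the same build. Some genes of these lists are not reported here.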

Additional observations from a re-analysis of the deposited data

How the results depend on the processing

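No paired analysis was possible because the tables hold group means and no value of a single sample, and leaving out each replicate could not be run for the same reason. Settings moved mostly counts of 1 or 2 genes. No called value of a single gene changed sign under any setting run. Of 340 values of single members under another setting, called or not, 33 moved by 0.1 or more in log2. With a pseudocount of 1 TPM, members called in spleen were 1 higher and 0 lower, in prostate 1 higher, and in testes 0 higher against wild type in both Tug1-/- and rescue; in liver the droplet list gave 1 higher and 1 lower and the paralogs 1 higher, and in heart 0 receptors were higher, 0 peroxisomal genes lower, 2 lipogenic genes lower and 0 glucose genes higher. With a minimum of 5 TPM, members called were 0 higher in liver (Fgf21 left out), 0 lower in eyes (median 0.35), 1 higher and 0 lower in spleen, and 0 higher in testes for Tug1-/- and for rescue against wild type. With no minimum, 2 were lower in eyes and 1 in rescue against wild type, and the prostate median was 0.28. Centred on the median gene, 0 members were lower in spleen and 0 higher in Tug1-/- testes, the member medians were 0.013 in heart, 0.35 in eyes and 0.00106 in spleen, in heart 0 receptors were higher and the clock list had 1 higher and 1 lower, and in eyes 4 mitochondrial oxidation genes were higher (the settings for eyes lists were added after seeing the data). Without Acot1 and Acot2 the member median was 0.13 in liver, 0.35 in eyes and 0.44 in prostate. At 1.2-fold, members were 2 higher and 3 lower in liver, 1 higher in heart, 4 higher in eyes, 2 lower in spleen, 2 higher in brain, 2 higher in Tug1-/- testes, and 3 lower in rescue against Tug1-/-. At 2-fold, 0 were lower in heart, eyes, spleen and MEFs, 1 was higher in spleen, and 0 were higher in prostate, in Tug1-/- testes and in rescue against wild type. Fgf21 and Vnn1 in liver, Pdk4 and Ucp3 in eyes and Pdk4 in spleen passed 2-fold.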
